A study of Mus musculus with 18 samples.

Results

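The hepatocyte identity transcription factors described here are 7 genes, Foxa1, Foxa2, Foxa3, Onecut1, Onecut2, Prox1 and Gata4. They were chosen by gene symbol and all 7 were listed in each of the 3 gene count tables, out of 21018 genes listed in at least 1 table. The libraries came from the livers of 12-week-old male C57/B6J mice. In each kit, 3 mice had received 20 µg/kg of IL-1β (labelled ILB_9579, ILB_9582 and ILB_9583) and 3 had received saline (labelled UNT_9574, UNT_9575 and UNT_9576), by intraperitoneal injection 4 hours before the liver was taken. RNA of each of the 6 mice was prepared with 3 kits, which gave 18 libraries. Pico is a stranded total RNA kit (1.7 to 2.6 ng of RNA), V4 an unstranded poly(A) kit (0.8 to 1.3 ng) and TruSeq a stranded poly(A) kit (200 ng). The 3 kits thus measured the same 6 animals, and a change seen with all of them was still a change in 3 mice against 3.

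FOXA proteins are forkhead factors that bind closed chromatin of liver enhancers early and open it to other factors, and ONECUT, PROX1 and GATA proteins act with them in forming the liver from the embryonic gut. In the adult liver factors of this set take part in the control of hepatocyte genes of glucose, lipid and bile acid metabolism. IL-1β is a cytokine of early inflammation that drives hepatocytes to make acute-phase proteins. The comparison below asks how the RNA of these factors stood in liver 4 hours after the cytokine, and whether the answer depended on the kit.

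The authors had brought the libraries of a kit to the same read depth by resampling, and the gene counts of a library summed to 4024632 to 4134070 for Pico, 12013453 to 12352473 for V4, and 12348864 to 12858237 for TruSeq. All 6 acute-phase genes checked were higher with IL-1β in each kit, among them Saa3, from a mean of 5.61 to 3555 CPM (counts of a gene per 1000000 counts of its library) in TruSeq. The hepatocyte markers were high in every library, with a summed level of the 10 genes of 46486 CPM or more. Libraries of the same treatment and kit differed by more than sampling noise, so none was a copy of another. Differences between the treatments were tested with limma-voom on the counts of 1 kit at a time, with Benjamini-Hochberg adjustment over all genes tested, and are given as log2 of IL-1β minus saline with the standard error (SE). A gene was called at an adjusted p of at most 0.05.

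Onecut2 and Foxa1 were lower with IL-1β in all 3 kits, and Gata4 was called lower in TruSeq. In Pico 2 of the 7 factors were called lower, against 10.8% of all genes tested. In V4 the count was also 2 of 7, against 7.41% of all genes. In TruSeq it was 3 of 7, against 21.8% of all genes, so that a call there was common among genes at large. No factor was called higher with library totals, against 6.78% of all genes in Pico, 3.6% of them in V4 and 12.3% of those of TruSeq. With TMM factors, which rescale libraries to a shared core of genes, Onecut2 and Foxa1 stayed called lower in each kit, against 8.16% of all genes in Pico, 4.84% of them in V4 and 16.1% of those of TruSeq. Gata4 was then not called, and 1 factor, Foxa3, was called higher in TruSeq. The share of all genes called higher with TMM factors was 16.7% in TruSeq, 9.16% in Pico and 4.79% in V4. The median log2 difference of the 7 factors was -0.80 with Pico, -0.70 with V4 and -0.58 with TruSeq, and that of all genes was -0.12, -0.22 and -0.17. TMM factors moved the differences of all genes up by a median of 0.13, 0.17 and 0.16 on the log2 scale. Over all genes in Pico they turned 1951 lower and 1228 higher calls into 1478 and 1658. The V4 calls went from 1337 and 649 to 874 and 864, and the TruSeq calls from 4232 and 2382 to 3127 and 3241. The response of each factor in each kit is shown beside its interval in the plot of log2 differences.

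**Figure D1:**
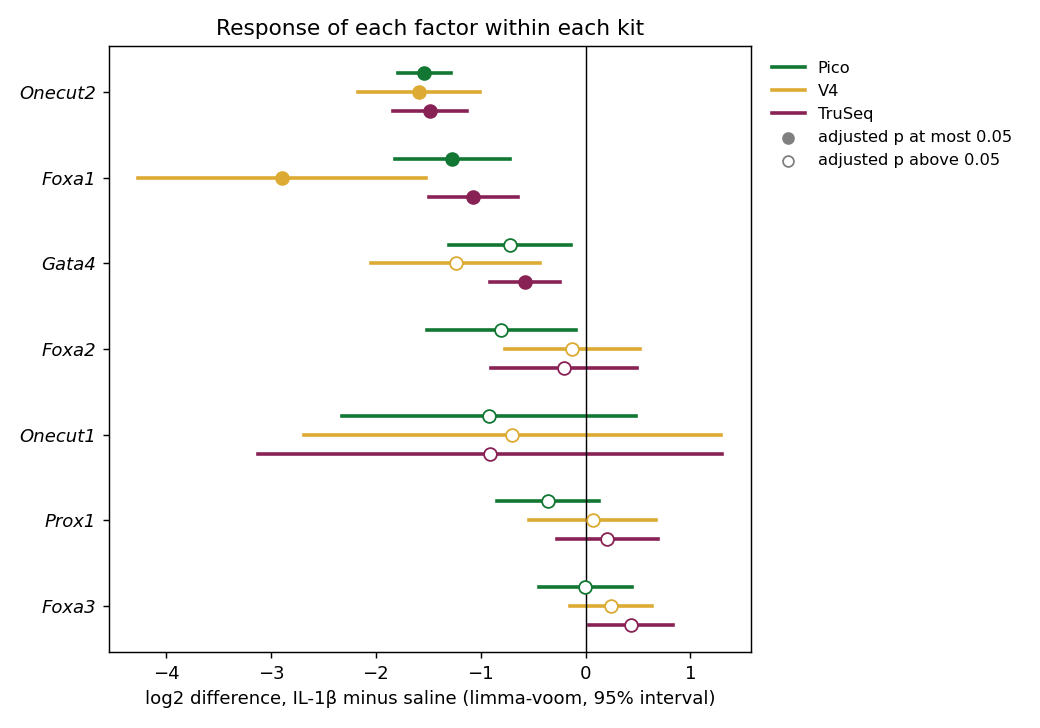
Log2 difference between IL-1β and saline for each factor (x axis, limma-voom, bars 95% intervals) in Pico, V4 and TruSeq, 3 mice per treatment, with filled points at an adjusted p of at most 0.05. Onecut2 lies at -1.54, -1.59 and -1.48 in the 3 kits with narrow intervals, Foxa1 at -1.27, -2.89 and -1.07, and the intervals of Onecut1 and Prox1 cross 0 in every kit.

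Of the 3 FOXA factors, Foxa1 (ENSMUSG00000035451, chr12:58641618-58647108, minus strand, mm9), which acts with Foxa2 in starting liver development, was called lower in all 3 kits. In TruSeq it had 168, 181 and 227 counts in saline mice UNT_9574, UNT_9575 and UNT_9576, and 75, 79 and 114 counts in IL-1β mice ILB_9579, ILB_9582 and ILB_9583. In Pico it had 102, 126 and 150 counts with saline and 42, 50 and 61 with IL-1β. In V4 it had 153, 134 and 113 counts with saline and 16, 6 and 52 with IL-1β. The lowest saline library lay above the highest IL-1β library in each kit. The fall was 2.41-fold in Pico (log2 -1.27, SE 0.26, limma-voom adjusted p = 0.00241), 7.42-fold in V4 (-2.89, SE 0.62, adjusted p = 0.0141) and 2.10-fold in TruSeq (-1.07, SE 0.19, adjusted p = 0.00206). The V4 value rested on few reads in the IL-1β mice, whose mean was 2.04 ± 2.01 CPM (SD, n = 3). The V4 call was lost when saline mouse UNT_9575 (limma-voom adjusted p = 0.0539), IL-1β mouse ILB_9579 (0.0597) or IL-1β mouse ILB_9582 (0.060) was left out, and the calls in Pico and TruSeq were kept in all 6 such fits. The size of the V4 difference also varied, at log2 -2.17 without mouse ILB_9582, -3.67 without mouse ILB_9583 and -2.24 with edgeR and with DESeq2. In bulk liver, fewer hepatocytes and less of an RNA per cell cannot be told apart.

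Foxa2 (ENSMUSG00000037025, chr2:147868613-147872705, minus strand), which in liver acts in bile acid and fasting metabolism, was not called in any kit. It had 107, 119 and 162 counts in the Pico libraries of saline mice UNT_9574, UNT_9575 and UNT_9576, and 34, 91 and 118 in those of IL-1β mice ILB_9579, ILB_9582 and ILB_9583. The TruSeq counts were 163, 148 and 284 with saline and 100, 183 and 223 with IL-1β. Those of V4 were 166, 191 and 302 with saline and 159, 240 and 192 with IL-1β. The treatments overlapped in all 3 kits, with mouse ILB_9579 the lowest of the IL-1β mice and mouse UNT_9576 the highest of the saline mice in each. The log2 difference was -0.80 (SE 0.34, limma-voom adjusted p = 0.120) in Pico, -0.13 (SE 0.29, adjusted p = 0.821) in V4 and -0.21 (SE 0.31, adjusted p = 0.636) in TruSeq. The V4 difference turned to 0.03 with TMM factors. The interval ran from -1.51 to -0.09 in Pico. It was -0.77 to 0.52 for V4 and -0.91 to 0.49 for TruSeq, so a fall of the size of that of Foxa1 in TruSeq lay outside the V4 and TruSeq intervals and inside that of Pico.

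Foxa3 (ENSMUSG00000040891, chr7:19598631-19608887, minus strand) is the FOXA factor with the most RNA in adult liver. In TruSeq it had 656, 757 and 866 counts in saline mice UNT_9574, UNT_9575 and UNT_9576, and 786, 939 and 1305 in IL-1β mice ILB_9579, ILB_9582 and ILB_9583. In V4 it had 1326, 1451 and 1839 counts with saline and 1542, 1895 and 1985 with IL-1β. In Pico it had 235, 253 and 175 counts with saline and 178, 186 and 296 with IL-1β. The treatments overlapped in each kit, and the mean with IL-1β was above that with saline in V4 and TruSeq. The log2 difference was -0.0015 (SE 0.21, limma-voom adjusted p = 0.996) in Pico, 0.24 (SE 0.18, adjusted p = 0.457) in V4 and 0.43 (SE 0.18, adjusted p = 0.0946) in TruSeq. The TruSeq value passed the threshold with other scaling, at 0.59 with TMM factors in limma-voom (adjusted p = 0.0322), 0.61 with edgeR's quasi-likelihood test (adjusted p = 0.0198) and 0.61 with DESeq2 (adjusted p = 0.00738). These tools called 32.4% and 28.3% of all genes in TruSeq. It also passed when IL-1β mouse ILB_9579 was left out (limma-voom, 0.60, adjusted p = 0.0423). The Pico value was 0.13 with TMM factors and was not called under any of these settings.

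The counts of all 7 factors in every library are set out by kit in the plot of CPM.

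**Figure D2:**
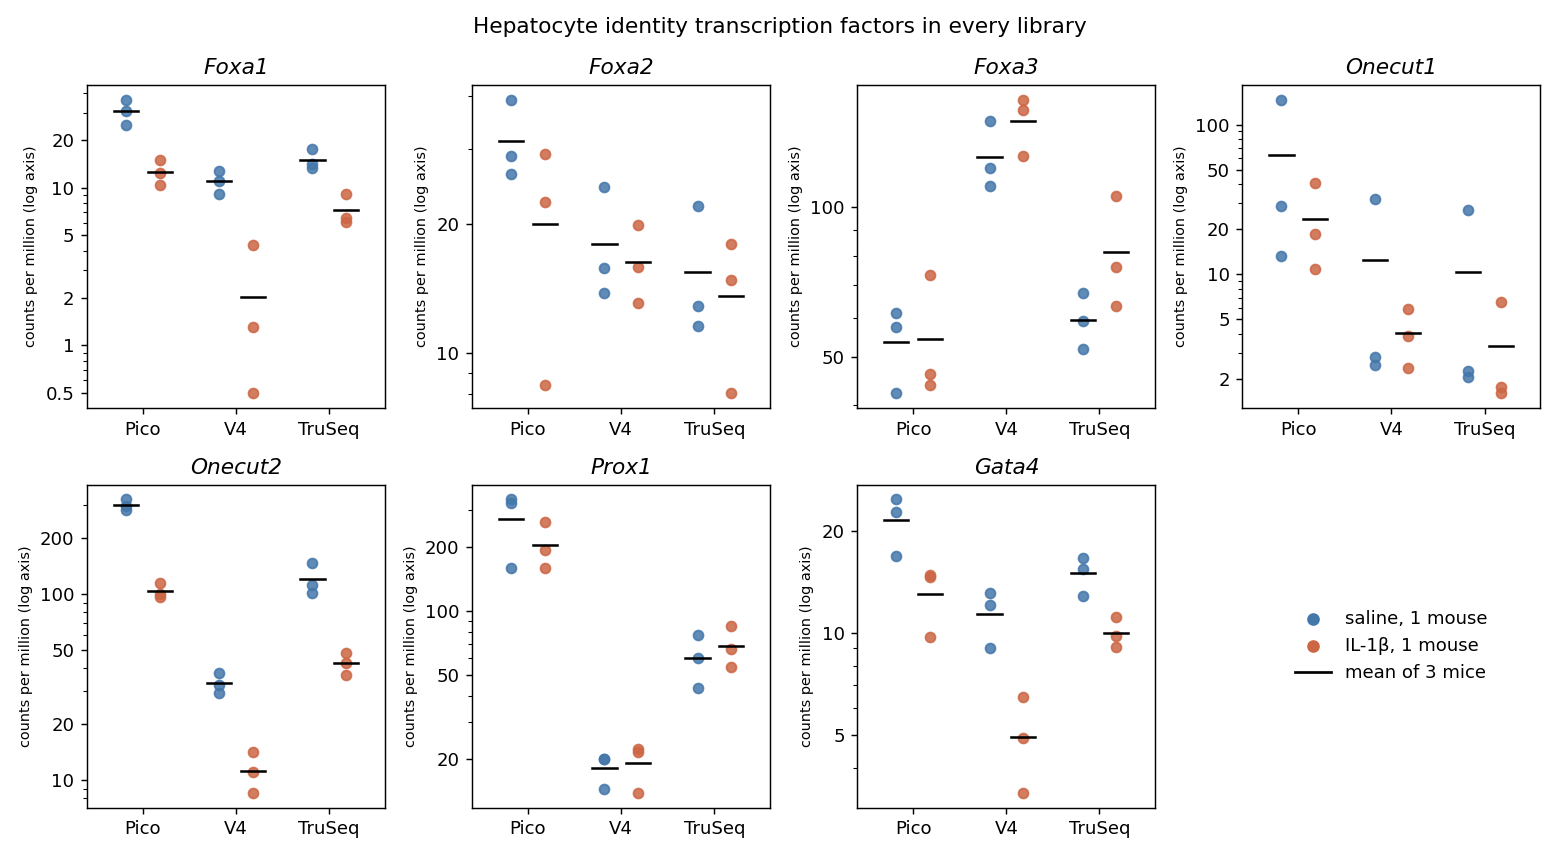
CPM of each factor (log axis) in the 18 libraries, by kit, with 1 point per mouse and a bar at the mean of 3 mice. Saline and IL-1β points do not overlap for Foxa1, Onecut2 and Gata4 in any kit, and 1 saline mouse stands far above the others for Onecut1 in each kit.

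The promoters of Foxa1 and Foxa3 are printed because these FOXA genes lay at opposite ends of the family, a called fall in all 3 kits against none. They are the 250 bases before the annotated start, 5′ to 3′ on the strand of the gene, from RefSeq on build GRCm38.p6, which is not the build of the count tables. Capitals mark matches, on either strand, to the forkhead letters TGTTTNC, the C/EBP letters TTNCNNAA or the TATA box letters TATAAA.
Foxa1 (chr12:57546112-57546361, minus strand): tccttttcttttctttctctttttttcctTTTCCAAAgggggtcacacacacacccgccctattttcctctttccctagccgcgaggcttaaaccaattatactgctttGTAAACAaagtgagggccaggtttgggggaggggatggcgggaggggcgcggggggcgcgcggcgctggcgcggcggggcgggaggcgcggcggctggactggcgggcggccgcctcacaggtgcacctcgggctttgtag
Foxa3 (chr7:19023540-19023789, minus strand): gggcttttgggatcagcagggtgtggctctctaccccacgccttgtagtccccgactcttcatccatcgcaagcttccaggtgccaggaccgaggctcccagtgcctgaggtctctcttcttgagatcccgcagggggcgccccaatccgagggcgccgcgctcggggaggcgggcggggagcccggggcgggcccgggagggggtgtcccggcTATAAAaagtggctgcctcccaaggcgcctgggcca
In the Foxa1 promoter the forkhead letters stood on the strand opposite to the gene, from 141 to 135 bases before the start, and C/EBP letters from 221 to 214 bases before it. The Foxa3 promoter held TATA box letters from 36 to 31 bases before the start and no match to the other letters searched. Of 32851 annotated mouse promoters of this length, 17.8% held the forkhead letters, 36.8% the C/EBP letters and 12.4% the TATA box letters. RefSeq promoters were found for 5 of the 7 factors, with 8 starts between them, and not for Onecut2 and Gata4. Among the other starts, the first of Foxa2 held the ONECUT letters ATTGAT, found in 6.72% of all promoters, and the second of Prox1 held forkhead letters. The GATA letters AGATAA, in 9.99% of all promoters, stood at the third Foxa2 start. Neither the NF-κB letters, GGGA with any base and TTTCC after it and found in 0.356% of all promoters, nor the STAT letters TTCNNNGAA, found in 7.02%, stood in any of the 8. Apart from a C/EBP match of Foxa2 that read on both strands, no match overlapped another, and all are matches of letters, not measured binding.

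Onecut2 (ENSMUSG00000045991, chr18:64500002-64560641, plus strand, mm9), a cut-homeodomain factor that shares sites with ONECUT1 in liver development, showed the steadiest change of the 7. Its TruSeq counts were 1419, 1293 and 1887 in saline mice UNT_9574, UNT_9575 and UNT_9576, and 530, 599 and 455 in IL-1β mice ILB_9579, ILB_9582 and ILB_9583. The Pico counts were 1218, 1332 and 1169 with saline and 465, 404 and 389 with IL-1β. The V4 counts were 355, 395 and 468 with saline and 172, 134 and 103 with IL-1β. Every saline library stood above every IL-1β library of its kit. Onecut2 fell 2.90-fold in Pico (log2 -1.54, SE 0.12, limma-voom adjusted p = 2.21e-07), 3.00-fold in V4 (-1.59, SE 0.26, adjusted p = 0.00378) and 2.80-fold in TruSeq (-1.48, SE 0.16, adjusted p = 0.000112). These calls were kept in all 6 fits of each kit that left out 1 mouse, and with TMM factors, edgeR and DESeq2. DESeq2 called 15.5% of all genes in Pico and 12% in V4, and edgeR 10.7% in V4. Relative to the median of all genes the fall was -1.42, -1.36 and -1.31 in the order above.

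Onecut1 (ENSMUSG00000043013, chr9:74709728-74737591, plus strand), also known as HNF6 and a regulator of glucose and bile acid enzymes, was dominated by a single saline animal. In TruSeq it had 26, 29 and 347 counts in saline mice UNT_9574, UNT_9575 and UNT_9576, and 20, 22 and 81 in IL-1β mice ILB_9579, ILB_9582 and ILB_9583. The V4 counts were 30, 34 and 396 with saline and 29, 47 and 71 with IL-1β. The Pico counts were 117, 55 and 606 with saline and 44, 75 and 164 with IL-1β. Mouse UNT_9576 was the highest of all 6 animals in each kit, and the other saline mice lay within the range of the IL-1β mice in V4, TruSeq and Pico. Its level was 6.98 times the mean of the other 2 saline mice in Pico, 12.1 times in V4 and 12.5 times in TruSeq. The log2 difference between the treatments was -0.92 (SE 0.66, limma-voom adjusted p = 0.406) in Pico, -0.70 (SE 0.90, adjusted p = 0.691) in V4 and -0.91 (SE 0.99, adjusted p = 0.527) in TruSeq. Without mouse UNT_9576 it was 0.05 (limma-voom adjusted p = 0.958), 0.51 (adjusted p = 0.561) and 0.30 (adjusted p = 0.750), so the direction of the pooled values rested on that mouse. With it, edgeR's quasi-likelihood test called Onecut1 lower in Pico (log2 -1.31, adjusted p = 3.13e-10), as it did 19.7% of all genes in either direction.

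Few genes stood out in this mouse as Onecut1 did. Where the saline mean was 20 counts or more in each kit, 2 genes, Onecut1 and Cish, were at least 4-fold above the other 2 saline mice in all 3 kits. Cish, an inhibitor of cytokine receptor signalling, is named here after its values were seen. The same count was 0 or 1 for each of the other 5 mice against the other 2 of their own treatment. Within a kit, 0.041% of 9754 genes were this far up in mouse UNT_9576 in Pico, 0.573% of 10651 in V4 and 0.0686% of 11665 in TruSeq. Among the IL-1β mice, Onecut1 was highest in mouse ILB_9583, at 2.75 times the mean of the other 2 in Pico, 1.88 times in V4 and 3.85 times in TruSeq. Onecut1 shares 479 exon bases with Gm16551 (ENSMUSG00000066477), a non-coding gene on the same strand that spans it, so the split of reads between these genes is uncertain. It is named here after its values were seen, as is Gm17566 beside Prox1. Gm16551 had 403, 374 and 1416 counts in TruSeq saline mice UNT_9574, UNT_9575 and UNT_9576 and 135, 149 and 236 in IL-1β mice ILB_9579, ILB_9582 and ILB_9583. It was thus highest in mouse UNT_9576 too, at 3.61 times the other 2 saline mice in TruSeq, 5.47 times in Pico and 1.52 times in V4.

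**Figure D3:**
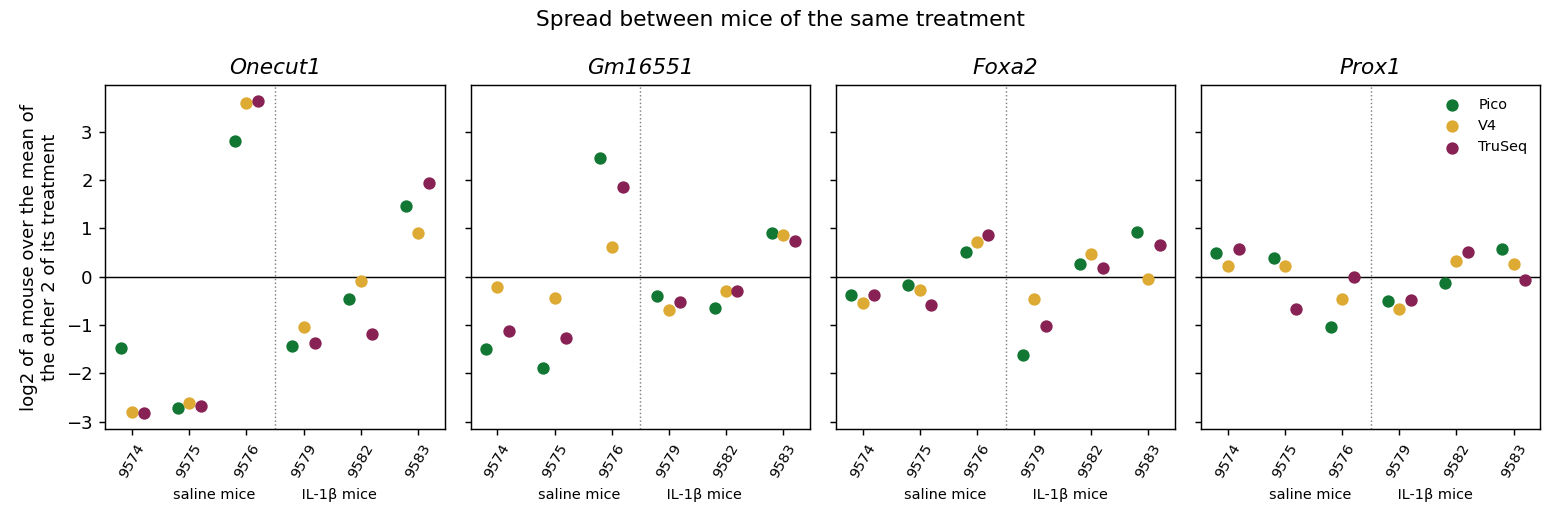
Log2 of the level of a mouse over the mean of the other 2 mice of its treatment (y axis), for Onecut1, the overlapping Gm16551, Foxa2 and Prox1, with the 6 mice along the x axis and 1 point per kit. For Onecut1 saline mouse UNT_9576 stands at 2.80, 3.59 and 3.64 in Pico, V4 and TruSeq, and for Foxa2 IL-1β mouse ILB_9579 is the lowest of its treatment at -1.62, -0.46 and -1.03.

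Prox1 (ENSMUSG00000010175, chr1:191945660-191994559, minus strand), a homeodomain factor needed for hepatoblasts to migrate and a corepressor of bile acid and metabolic genes, was not called in any kit. It had 974, 553 and 773 counts in TruSeq saline mice UNT_9574, UNT_9575 and UNT_9576 and 674, 1055 and 827 in IL-1β mice ILB_9579, ILB_9582 and ILB_9583. The V4 counts were 241, 244 and 179 with saline and 169, 269 and 262 with IL-1β. The Pico counts were 1375, 1331 and 660 with saline and 650, 782 and 1062 with IL-1β. The treatments overlapped in each kit, and in Pico saline mouse UNT_9576 fell among the IL-1β mice. The log2 difference was -0.36 (SE 0.23, limma-voom adjusted p = 0.333) in Pico, 0.07 (SE 0.28, adjusted p = 0.900) in V4 and 0.21 (SE 0.22, adjusted p = 0.523) in TruSeq. Without mouse UNT_9576 the Pico value was -0.71 and passed the threshold (limma-voom adjusted p = 0.0236). The interval ran from -0.84 to 0.12 in Pico. It was -0.54 to 0.67 for V4 and -0.27 to 0.69 for TruSeq. V4 counts both strands together, and Gm17566 (ENSMUSG00000079045), a long non-coding RNA gene on the opposite strand, shares 133 exon bases with Prox1, so part of the V4 reads of either gene cannot be assigned.

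Gata4 (ENSMUSG00000021944, chr14:63817759-63890529, minus strand), a zinc finger factor of early liver and heart that is also known from sinusoidal endothelial and stellate cells, was lower with IL-1β in every library. The TruSeq counts were 163, 198 and 214 in saline mice UNT_9574, UNT_9575 and UNT_9576, and 113, 121 and 138 in IL-1β mice ILB_9579, ILB_9582 and ILB_9583. In V4 they were 108, 158 and 149 with saline and 41, 59 and 78 with IL-1β. In Pico they were 69, 102 and 94 with saline and 59, 39 and 60 with IL-1β. No IL-1β library reached a saline library of its kit, and the gap was narrowest in Pico, between 60 counts in mouse ILB_9583 and 69 in mouse UNT_9574. The log2 difference was -0.72 (SE 0.27, limma-voom adjusted p = 0.0841) in Pico, -1.24 (SE 0.37, adjusted p = 0.0537) in V4 and -0.58 (SE 0.15, adjusted p = 0.0138) in TruSeq, of which the last was called. The TruSeq call was lost with TMM factors (log2 -0.42, limma-voom adjusted p = 0.0604) and DESeq2 (-0.43, adjusted p = 0.0914), and with 1 limma-voom fit of all 18 libraries (-0.58, adjusted p = 0.052). It stood at the threshold with edgeR (-0.43, adjusted p = 0.0498), and was lost when mouse UNT_9575, UNT_9576, ILB_9579 or ILB_9582 was left out (limma-voom adjusted p between 0.0508 and 0.0593). Conversely, keeping only genes that reached 10 counts in 3 libraries brought Gata4 past the threshold in Pico (limma-voom adjusted p = 0.0479) and in V4 (adjusted p = 0.0335). The fit of all 18 libraries also called it in V4 (log2 -1.24, limma-voom adjusted p = 0.00185). That fit had no term for the mouse, so libraries of the same mouse in different kits counted as independent. Foxa1, Onecut2 and Gata4 were thus the 3 factors whose treatments did not overlap, with IL-1β lower, in all 3 kits. In each kit taken by itself, such a gap was found for 18.6% of all genes with Pico, 18.6% with V4 and 27.9% with TruSeq. The share of genes with the gap in all 3 kits was not computed.

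The summed markers of sinusoidal endothelial cells were lower with IL-1β, as were those of stellate cells, Kupffer cells and hepatocytes. The fall was thus not particular to endothelial cells. The summed level of the 8 markers was 231.2 to 260.2 CPM in TruSeq saline mice and 129.7 to 165.2 CPM in IL-1β mice. For Pico it was 388.7 to 434.3 against 253.6 to 293.6 CPM, and for V4 114.1 to 164.6 against 64.6 to 81.7 CPM. Of the 8 genes, 6 were called lower in TruSeq, 4 in Pico and 3 in V4, against 21.8%, 10.8% and 7.41% of all genes. Kdr, a receptor of vascular growth factor, was the lowest, at a log2 difference of -2.38 in TruSeq. Clec4g (-1.75), a lectin of these cells, and Fcgr2b (-1.42), an Fc receptor, were also lower in all 3 kits, and Lyve1 (0.94), a hyaluronan receptor, was called higher in TruSeq and Pico. Stellate cell markers, which also mark cells with Gata4, summed to 280.2 to 325.5 CPM with saline and 165.9 to 217.7 CPM with IL-1β in TruSeq, where 3 of 6 were called lower. The part of these cell types in the Gata4 values was not tested.

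Whether the response of a factor differed between kits was tested as an interaction of kit and treatment on the 12 libraries of a pair of kits. None of the 7 factors was called in any of the 3 pairs by limma-voom, edgeR or DESeq2. For TruSeq with Pico, limma-voom and edgeR called 0% of 17207 genes and DESeq2 0.0232%. For TruSeq with V4 they called 0% of 17147 genes and DESeq2 0.286%, and for both low-input kits 0% of 16395 genes and DESeq2 0.0793%. With the mouse as a block, limma-voom called 0.00581% of genes in the first pair and 0% in the others. At an unadjusted p under 0.05, limma-voom counted 0 of 7 factors in the first pair, 1 in the second and 1 in the third, against 5.49%, 6.36% and 5.49% of all genes. That factor was Foxa1 both times. Its log2 difference was lower in V4 than in TruSeq by an interaction of -1.82 (95% interval -3.13 to -0.52, limma-voom adjusted p = 0.513), and Pico stood above V4 by 1.62 (0.25 to 2.99, adjusted p = 0.847). With the mouse as a block these limma-voom values were -1.47 (unadjusted p = 0.0315, adjusted p = 0.635) and 1.21 (unadjusted p = 0.0817, adjusted p = 0.842), so the second no longer counted at the unadjusted threshold. For Onecut2 the interaction of Pico against TruSeq was -0.05 (95% interval -0.48 to 0.37), that of V4 against TruSeq -0.10 (-0.75 to 0.55) and that of Pico against V4 0.05 (-0.51 to 0.61). The intervals of Onecut1 were wide in these fits without the mouse, reaching from -3.16 to 3.59 for V4 against TruSeq. Saline mouse UNT_9576, high in each kit, counted there towards the spread. With the mouse as a block the V4 against TruSeq value of Onecut1 was 0.06 (limma-voom unadjusted p = 0.890, adjusted p = 0.992).

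Levels were compared between the factors only within a kit, as CPM per kb of merged exon. In TruSeq, saline livers had the order Foxa3 (29.2 ± 3.81, SD, n = 3), Prox1 (14.5 ± 4.08), Onecut2 (7.54 ± 1.5), Foxa2 (6.54 ± 2.42), Onecut1 (4.93 ± 6.77), Foxa1 (4.71 ± 0.73) and Gata4 (3.84 ± 0.49). The ranges of the mice separated Foxa3 from Prox1 and Prox1 from Onecut2, and each neighbour below that overlapped the next. In V4 Foxa3 stood at 62.0 ± 9.83 and the next, Foxa2, at 7.60 ± 2.39, and no neighbours below Foxa3 were separated. Onecut2 was last there, at 2.10 ± 0.26. In Pico the order began with Prox1 (66.1 ± 23.9), Onecut1 (29.7 ± 34.5) and Foxa3 (26.4 ± 4.95). The range of Onecut1, 6.31 to 69.3, overlapped those of Prox1 and Foxa3, while Prox1 lay above Foxa3 without overlap. The order went on with Onecut2 (19.0 ± 1.29), Foxa2 (13.3 ± 2.89), Foxa1 (9.60 ± 1.77) and Gata4 (5.49 ± 1.04). Foxa3 lay above Onecut2, Onecut2 above Foxa2 and Foxa1 above Gata4 without overlap. With IL-1β the top was Foxa3 in TruSeq (40.0 ± 10.5) and V4 (73.3 ± 9.87) and Prox1 in Pico (49.8 ± 12.6).

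**Figure D4:**
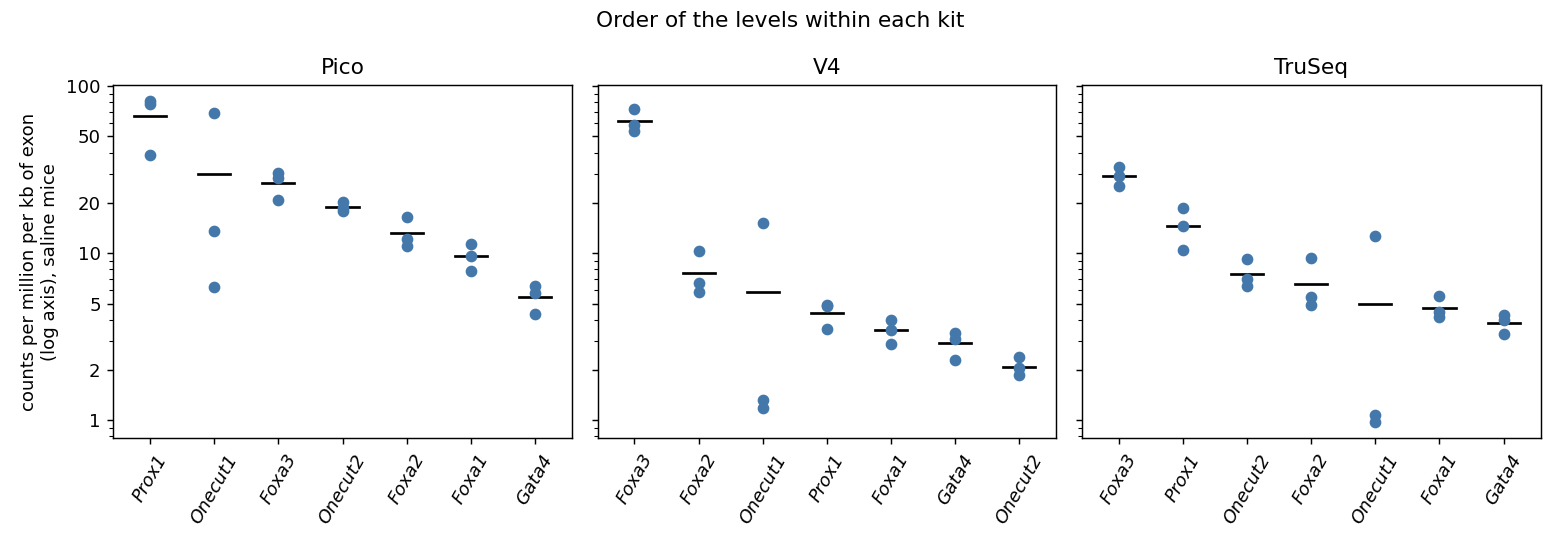
Level of each factor in the saline mice as CPM per kb of exon (y axis, log axis), ordered by the mean within each kit, with 1 point per mouse and a bar at the mean of 3. Foxa3 leads in V4 (62.0) and TruSeq (29.2) and Prox1 in Pico (66.1), and saline mouse UNT_9576 stands far above the other saline mice for Onecut1 in each kit.

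The order thus changed with the kit, and the same mice gave paired ratios between kits. Across the 6 mice, Onecut1 was higher in Pico than in TruSeq by 2.92 ± 0.53 on the log2 scale (SD, n = 6), above 99.7% of the 9569 genes whose means reached 20 counts in both kits. Prox1 was higher there by 1.86 ± 0.62, above 98.3% of those genes, and Onecut2 by 1.32 ± 0.27, while the median gene stood at 0.05. Foxa3 alone of the 7 had a mean ratio below that of the median gene, at -0.37 ± 0.38. In V4 the log2 ratio to TruSeq was -1.89 ± 0.23 for Onecut2 and -1.77 ± 0.36 for Prox1, below the median gene (-0.34) in all 6 mice, and 0.99 ± 0.18 for Foxa3, above it in all 6 mice. Lower ratios than these were held by 14.6%, 16.6% and 87.8% of 10266 genes. Between the low-input kits, Prox1 was 12.4-fold and Onecut2 9.21-fold higher in Pico than in V4, and Foxa3 was 2.57-fold lower. These ratios lay above those of 95.9%, 92.6% and 12.6% of 8976 genes, whose median was a log2 ratio of 0.48. Pico and V4 differed in chemistry and slightly in RNA amount, and the TruSeq libraries were also made from far more RNA and read on another sequencer with shorter reads, so what set these ratios cannot be told apart. The treatment differences above were computed within a kit and do not rest on these ratios.

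The factors also differed in how they moved together over the libraries, after the mean of each kit had been taken out. These are descriptions over 18 libraries that share 6 mice and the treatment. Foxa1 and Gata4 had a Pearson r of 0.878 on log2(CPM + 1), Onecut2 and Gata4 0.794, and Foxa1 and Onecut2 0.785. Foxa2 and Onecut1 had 0.736. Prox1 and Foxa3 had 0.464, the highest r of either with any of the other factors. Of the 4203 or 4204 genes whose means reached 100 counts in every kit, Onecut2 was most like Sec14l2, a lipid-binding protein (0.985), and Hadh, an enzyme of fatty acid oxidation (0.982). Foxa1 was most like Mfn2, a mitochondrial fusion protein (0.962), and Ehd3 (0.961), and Gata4 most like Ahcy, an enzyme of methionine metabolism (0.930), and Gna11 (0.926). The genes closest to Foxa3 were Atp6v0c (0.892) and Nags (0.810), to Onecut1 Aacs (0.864) and Pex26 (0.833), to Foxa2 Nr1i2 (0.806) and Por (0.789), and to Prox1 Aamp (0.761) and Unc93b1 (0.704). Nr1i2 is the xenobiotic receptor PXR, and Por the reductase that serves the P450 enzymes.

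Other transcription factors of the liver changed in both directions. Of 15 such factors, 7 were called lower and 1 higher in Pico, against 10.8% and 6.78% of all genes. V4 gave 6 and 0, against 7.41% and 3.6%. TruSeq gave 5 and 2, against 21.8% and 12.3%. TMM factors gave 7 and 2 for Pico, against 8.16% and 9.16% of all genes. They gave 3 and 0 for V4 (4.84% and 4.79%), and 4 and 3 for TruSeq (16.1% and 16.7%). Hhex, a homeodomain factor needed for the liver bud, was lowest at a log2 difference of -2.43 with Pico, -2.47 with V4 and -2.30 with TruSeq, and kept its call in all fits that left out 1 mouse. Cebpa, a leucine zipper factor of hepatocyte metabolism, was at -1.15, -0.94 and -1.16. Its V4 call (limma-voom adjusted p = 0.0479) was lost without any of mice UNT_9575, UNT_9576, ILB_9579, ILB_9582 and ILB_9583. Nr0b2, the bile acid-induced corepressor SHP, was at -1.76, -1.30 and -1.28, and its calls depended on UNT_9574, UNT_9575, ILB_9579, ILB_9582 and ILB_9583 in Pico and on UNT_9575 and ILB_9583 in V4. Hnf4a, the nuclear receptor at the head of the hepatocyte network, rose by 0.65 in Pico (limma-voom adjusted p = 7.6e-05) and 0.91 in TruSeq (adjusted p = 5.09e-05), and was at 0.48 in V4 (adjusted p = 0.166). The difference of Foxa3 was on the same side as that of Hnf4a in TruSeq (0.43) and V4 (0.24), and was called in neither. In Pico, where Hnf4a was called higher, Foxa3 was at -0.0015.

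**Figure D5:**
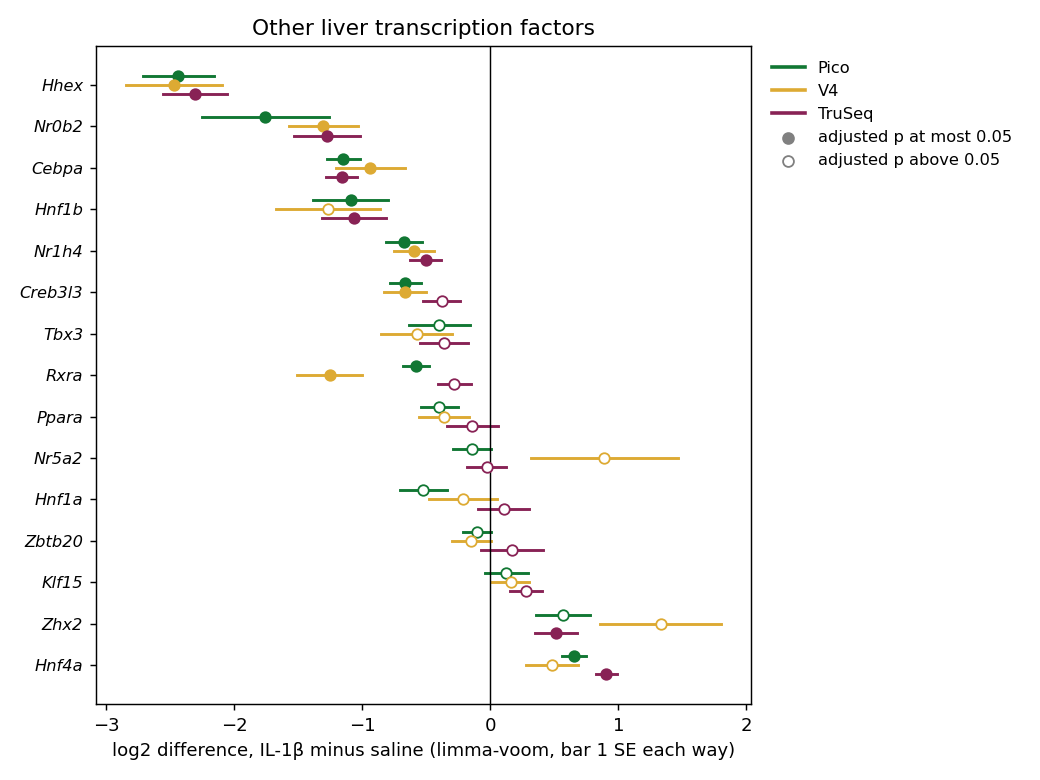
Log2 difference between IL-1β and saline (x axis, limma-voom, bars 1 SE each way) for 15 other liver transcription factors in Pico, V4 and TruSeq, filled at an adjusted p of at most 0.05. Hhex lies lowest at -2.43, -2.47 and -2.30, and Hnf4a is filled on the higher side in Pico (0.65) and TruSeq (0.91).

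Among 7 relatives of the factors by family, Onecut3 and Gata1 were not listed in any of the tables, and 5 were tested. None of the 5 was called in Pico or V4. In TruSeq Gata6, which overlaps GATA4 in function in early liver, was called higher (log2 0.60, limma-voom adjusted p = 0.0287) and Prox2 lower (-2.41, adjusted p = 0.0459). Gata6 lost its call without UNT_9574, UNT_9576, ILB_9579 or ILB_9582, and Prox2 without any mouse but ILB_9583. The Prox2 value rested on few counts, 8 to 22 with saline and 0 to 7 with IL-1β in TruSeq. Gata5 and Gata3 were near the limit of counting there, with at most 6 and 2 counts in a library, and were not called. Of 7 cofactors known to work with PROX1 and GATA4, Pico called 2 lower and V4 and TruSeq 3 each, and none was called higher. Shares of all genes called lower in Pico, V4 and TruSeq were 10.8%, 7.41% and 21.8%, and those called higher 6.78%, 3.6% and 12.3%. Esrra, an orphan nuclear receptor that PROX1 holds down, was at -2.12, -1.25 and -1.57, with the V4 call lost without UNT_9575, ILB_9582 or ILB_9583. Hdac3, a histone deacetylase, was called in TruSeq (-0.46), as was the GATA cofactor Zfpm2 (-1.35), whose call was lost without any mouse but ILB_9583. Zfpm2 too had few counts there, 10 to 12 with saline and 2 to 5 with IL-1β. Ppargc1a, a coactivator of fasting genes, was called in Pico (-1.37) and V4 (-2.90). In Pico that call was lost without UNT_9576, ILB_9579 or ILB_9583, and in V4 without UNT_9575, ILB_9579, ILB_9582 or ILB_9583. The V4 value of Ppargc1a rested on 3 to 6 counts with IL-1β and 25 to 48 with saline.

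Target genes that are known to carry FOXA sites did not change together. Of 12 such genes, 6 were called lower and 3 higher in Pico. The counts were 4 and 2 both in V4 and with TruSeq. Of all genes, 10.8% were called lower in Pico, 7.41% in V4 and 21.8% in TruSeq. Called higher were 6.78%, 3.6% and 12.3% of all genes. Slc2a2, the glucose transporter of hepatocytes, had log2 differences of -1.69 with Pico, -2.25 with V4 and -2.34 with TruSeq. Alb, which encodes albumin, was at -0.43, -0.56 and -0.61. Tat, which encodes tyrosine aminotransferase, rose by 1.14, 0.98 and 1.28. These 3 genes were called in all 3 kits, and in every fit that left out 1 mouse. Of 9 known targets of ONECUT1 and PROX1, 6 were called lower and 1 higher in Pico and likewise in TruSeq, and 4 and 0 in V4. These counts stand against the same shares of all genes. Cyp7a1, the rate-limiting enzyme of bile acid synthesis, was at -5.94, -5.71 and -5.84 on the log2 scale, from a mean of 254.9 to 4.82 CPM in TruSeq. Cyp8b1, which makes the cholic acid branch, was at -1.69, -1.59 and -1.92, and Pfkfb1, a regulator of glycolysis, was called in TruSeq alone (-0.74). Hnf4a, also on this list, was the gene called higher. Some of these genes stand on both lists and answer to other factors as well, so the counts describe the lists and not the activity of a factor.

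Markers of several cell types of the liver moved as well. The summed CPM of 10 hepatocyte markers was 96754 to 114504 in saline and 70434 to 76645 in IL-1β mice in TruSeq, 64577 to 77889 against 52198 to 57293 in Pico, and 56656 to 69886 against 46486 to 50734 in V4. Alb made up most of the TruSeq sum. Its mean was 76517 CPM of 107022 with saline and 49949 CPM of 74394 with IL-1β. With library totals Pico called 9 of the 10 lower, V4 4 and TruSeq 7, and with TMM factors the counts were 4, 2 and 4. All genes were called lower at 10.8%, 7.41% and 21.8% with library totals, and at 8.16%, 4.84% and 16.1% with TMM factors. They were called higher at 6.78%, 3.6% and 12.3% with library totals. Cps1, an enzyme of the urea cycle, was lower by -0.93 and Cyp2e1, a P450 enzyme, by -0.76 in TruSeq, and Tat was called higher. Of 6 cholangiocyte markers, whose cells also express Foxa and Onecut genes, 1 was called higher in Pico, 0 in V4 and 3 in TruSeq, where 1 was called lower. Among them Sox9, a factor of the bile duct, was at 1.18 and the adhesion protein Epcam at 1.22 in TruSeq, and the Sox9 call was lost without any mouse but ILB_9583. Their summed level was 46.2 to 64.8 CPM with saline and 43.1 to 51.6 CPM with IL-1β in TruSeq, where the secreted protein Spp1 alone had a mean of 48.8 and 35.7 CPM. The sum was 72.9 to 107.4 against 71.1 to 94.6 CPM in V4 and 33.3 to 56.8 against 39.1 to 79.6 CPM in Pico. Its mean was thus lower with IL-1β in TruSeq and V4 and higher in Pico. Cftr was at 3 counts or fewer in every Pico and V4 library. In TruSeq Cftr was among the markers called higher (log2 1.97, limma-voom adjusted p = 0.0299). That call rested on 0 to 1 counts with saline and 2 to 5 with IL-1β, and was lost without any mouse but ILB_9582. Kupffer cell markers summed to 108.1 to 179.8 CPM with saline and 52.6 to 78.3 CPM with IL-1β in TruSeq, where 4 of 6 were called lower. Neutrophil markers summed to 3.12 to 5.85 CPM with saline and 41.7 to 82.4 CPM with IL-1β in TruSeq, where 4 of 5 listed were called higher. The part of these cell types in the values of the 7 factors was not tested.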

How the data were processed

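Livers of 6 mice were profiled with 3 kits, and the deposited values were counts of whole reads per gene, 1 table per kit. The authors aligned the reads to mm9 with GSNAP, and their PORT pipeline removed ribosomal reads, resampled the libraries of a kit to the same depth and counted reads that respected annotated junctions. V4 counts take in both strands, those of the stranded kits the sense strand. The Pico preparation was repeated in the study, and which run the table holds is not given in the sources used here. The Pico table listed 18108 genes, that of V4 18051 and that of TruSeq 19424, with totals of 4024632 to 12858237 counts per library. The p-values measure the spread between these mice.

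Treatments were compared 1 kit at a time by limma-voom (limma 3.58.1, R 4.3.3) on the counts, the tool the methods of the study name. The scaling by library totals and the use of all genes above 0 in at least 1 library were chosen here, with Benjamini-Hochberg adjustment. Differences between kits were fitted as an interaction of kit and treatment over genes listed in both tables. Levels were CPM per kb of merged exon of the GENCODE annotation of mm9, whose coordinates are given. Alternatives were TMM factors in voom, edgeR 4.0.16 quasi-likelihood, DESeq2 1.42.0 without independent filtering, at least 10 counts in 3 libraries, 1 fit of all 18 libraries, other thresholds, leaving out each mouse, TMM-scaled totals or the longest transcript for levels, and the mouse as a replicate block. The fits were tested on simulated data. Neither the fit of all 18 libraries nor the main interaction fit had a term for the mouse. Summaries used Python 3.11.15, numpy 2.4.6, pandas 2.3.3 and matplotlib 3.10.9.

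The mouse number pairs libraries of different kits, since RNA of each mouse was split between them. As a check, deviations from the group means correlated at 0.183 to 0.428 for the same mouse in TruSeq and Pico. The range was 0.175 to 0.435 in TruSeq and V4 and 0.0789 to 0.234 in both low-input kits, and every value for different mice was below 0. Since deviations within a group sum to 0, positive values for the same mouse push those for different mice below 0. The latter are thus not a separate check.

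The 7 factors and the gene lists were chosen with earlier results of these data known. Named from each other list were up to 4 genes with the smallest p in TruSeq and any called in opposite directions, and for each factor the 2 genes most like it. Genes outside this rule are said to be named after their values were seen. Promoters came from RefSeq. Antisense and intron values were not analysed here. For 1 gene named by this rule the values are not reported here.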

Additional observations from a re-analysis of the deposited data

How the results depend on the processing

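When each mouse was left out in turn, Pico and TruSeq each called 2 to 3 factors and V4 1 to 2, and the interactions 0. The same fits called 9.89% to 14.5% of all genes in Pico, 26.7% to 29.2% of those of TruSeq and 5.13% to 11.8% of those of V4. At an adjusted p of at most 0.01 the count was 1 in V4, 2 in TruSeq and 2 in Pico, against 4.23%, 21.0% and 10.4% of all genes. In the order of the V4 saline levels, 1 pair of neighbours was separated, and 2 were with TMM-scaled totals or the longest transcript. Within a kit, values near 0 changed sign. Foxa2 in V4 was 0.035 with TMM factors, 0.032 with edgeR and 0.033 with DESeq2. Foxa3 in Pico was 0.13 with TMM factors, 0.16 with edgeR and 0.15 with DESeq2. Leaving out 1 mouse gave -0.45 to 0.13 for Foxa2 in TruSeq and -0.29 to 0.12 in V4, -0.23 to 0.13 for Foxa3 in Pico, -0.0087 to 0.41 for Prox1 in TruSeq and -0.093 to 0.29 in V4, and for Onecut1 -1.68 to 0.048 in Pico, -1.56 to 0.30 in TruSeq and -1.33 to 0.51 in V4. The cause was not tested, except that the positive Onecut1 values are those without mouse UNT_9576. DESeq2 gave no adjusted p for Onecut1 in TruSeq.

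With the mouse as a replicate block, the interaction of Onecut1 was 0.20 between Pico and TruSeq and 0.14 between Pico and V4, with the sign turned, and 0.16 and 0.076 with edgeR and 0.21 and 0.11 with DESeq2. The block changed no call of the 7 factors, and that of Foxa1 between V4 and TruSeq was -1.47. Onecut2 between Pico and V4 was -0.037 with TMM factors, -0.049 with edgeR and -0.039 with DESeq2. Leaving out 1 mouse gave -0.25 to 0.42, -0.46 to 0.20 and -0.085 to 0.55 for Onecut1 in Pico against TruSeq, Pico against V4 and V4 against TruSeq, and -0.25 to 0.11, -0.093 to 0.15 and -0.28 to 0.00099 for Onecut2. It gave -0.30 to 0.044 for Gata4 between Pico and TruSeq, and between V4 and TruSeq -0.11 to 0.33 for Foxa2 and -0.32 to 0.16 for Prox1. Foxa1 in V4 rested on 6 to 52 counts in the IL-1β mice, although the V4 totals were about those of TruSeq, and 3 mice per treatment limit every test.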

Other observations

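Non-coding genes beside or across the factors were lower with IL-1β than with saline, in places where the factor itself was not called. They were named after their values were seen. 9030622O22Rik (ENSMUSG00000086141, chr2:147770476-147865939, minus strand, mm9) lies on the same strand as Foxa2, with 2673 bases between the 3′ end of Foxa2 and its own start. It had 161, 103 and 172 counts in TruSeq saline mice UNT_9574, UNT_9575 and UNT_9576, and 20, 6 and 15 in IL-1β mice ILB_9579, ILB_9582 and ILB_9583. In Pico it had 61, 30 and 37 counts with saline and 4, 3 and 6 with IL-1β, and in V4 15, 25 and 22 with saline and 4, 1 and 0 with IL-1β. No IL-1β library reached a saline library of its kit. It fell by log2 -3.11 in Pico (limma-voom adjusted p = 0.00218), -3.78 in V4 (adjusted p = 0.0159) and -3.44 in TruSeq (adjusted p = 0.000287), and the V4 call was lost without UNT_9575, ILB_9582 or ILB_9583. The log2 differences of Foxa2 in the same kits were -0.80, -0.13 and -0.21, and the difference between both genes was not tested.

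Gm16551, the non-coding gene across Onecut1, was lower by -1.96 in V4 (limma-voom adjusted p = 0.00742) and -1.79 in TruSeq (adjusted p = 0.0186), and was at -1.52 in Pico (adjusted p = 0.0796). Without saline mouse UNT_9576 these values were -1.75, -1.17 and -0.70, of which the first 2 passed the threshold, while the values of Onecut1 without that mouse were above 0. The TruSeq call of Gm16551 was lost without ILB_9579, ILB_9582 or ILB_9583. Gm17566, on the strand opposite to Prox1, had 58, 69 and 59 counts in TruSeq saline mice and 28, 20 and 13 in IL-1β mice, which do not overlap. Its log2 difference was -1.60 in TruSeq (limma-voom adjusted p = 0.00163), -1.26 in V4 (adjusted p = 0.0615) and -1.44 in Pico (adjusted p = 0.273), where the 6 libraries held 1 to 11 counts. Prox1 was at 0.21, 0.07 and -0.36 in that order. Part of the V4 reads of Gm17566 and Prox1 cannot be assigned to a strand.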
